A study of Mus musculus with 12 samples.

Results

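The wound-induced keratins are 4 genes, Krt6a, Krt6b, Krt16 and Krt17, taken by name from deposited tables of 55487 genes each. RNA was sequenced from wounds of male C57BL/6JNarl mice aged 6 weeks, which carried full-thickness punch wounds on the back. Wounds received either Pluronic F127 gel alone once daily (P-F127, the sham group) or the same gel with 10 µM capsaicin (CAP, the agonist of the TRPV1 channel of sensory neurons). Wound and surrounding skin were taken at day 3 or day 6, which gave 4 groups of 3 libraries. All groups had a wound and the gel, so there was no unwounded skin to set the keratins against. The sources used here do not say which libraries share a mouse, and p-values measure the spread between these libraries.

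Keratins build the intermediate filaments of epithelial cells as pairs of a type II and a type I chain. Resting epidermis uses the pair Krt5 and Krt14 in its basal layer and the pair Krt1 and Krt10 in the layers above. After injury, keratinocytes at the wound edge switch on the type II keratins Krt6a and Krt6b and the type I keratins Krt16 and Krt17, which accompany their activation and migration across the wound. The same keratins are made without injury in parts of the hair follicle and the nail.

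On the mouse genome build GRCm38, Krt6a (ENSMUSG00000058354, chr15:101689910-101694307) and Krt6b (ENSMUSG00000023041, chr15:101676023-101680287) lie next to each other in the type II cluster on chromosome 15. Krt16 (ENSMUSG00000053797, chr11:100246091-100248902) and Krt17 (ENSMUSG00000035557, chr11:100256217-100261029) are neighbours in the type I cluster on chromosome 11. All 4 are on the minus strand. The coding sequences of Krt6a and Krt6b were 97.77% identical over 1662 aligned positions, with 37 differences and an unbroken identical run of 280 bases. Those of Krt16 and Krt17 were 75.83% identical, with a longest identical run of 55 bases. The 60-base coding windows, aligned without gaps, in which each pair differed most are printed here. They are the stretches where the partners are easiest to tell apart, while the 280-base run of Krt6a and Krt6b holds no difference. These windows come from the GENCODE M21 transcripts, and each lies within 1 exon. Capitals mark the bases that differ between the partners, 10 in the first pair and 26 in the second.
Krt6a, chr15:101692484-101692543, minus strand: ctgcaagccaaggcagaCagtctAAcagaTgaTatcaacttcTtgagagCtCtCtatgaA
Krt6b, chr15:101678303-101678362, minus strand: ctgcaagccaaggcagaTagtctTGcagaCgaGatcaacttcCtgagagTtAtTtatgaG
Krt16, chr11:100248555-100248614, minus strand: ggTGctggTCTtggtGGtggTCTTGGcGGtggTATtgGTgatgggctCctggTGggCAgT
Krt17, chr11:100260717-100260776, minus strand: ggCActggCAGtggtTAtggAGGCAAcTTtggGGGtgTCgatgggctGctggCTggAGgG

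Of the 31-base stretches of the Krt6a transcript, 49.33% also occurred in Krt6b, and 50.29% of those of Krt6b occurred in Krt6a. The division of reads between these paralogs is therefore uncertain, and their sum is given beside the single genes where it matters. The paired reads described in the paper were longer than 31 bases, so the share of reads that fit both genes is not known. Of the Krt16 stretches, 32.18% occurred in the pseudogene Gm11597 and 19.74% in Krt14. Krt17 was the most distinct, with 15.84% of its stretches in any other gene. Krt6a is also overlapped on the plus strand by Gm49428, listed at 3.4 to 17.9 TPM, and the strand setting of the quantification is not given in the sources used.

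Expression is given in TPM, which is corrected for transcript length and gives a gene's share of all transcripts of its library. TPM holds no read numbers, so the depth is unknown and no counting error can be given. In these bulk samples fewer cells of a type and less RNA per cell cannot be told apart. Each library had 18533 to 19325 genes at 0.3 TPM or more. The tissue label was checked with 17 keratinocyte genes other than keratins (Trp63, Itga6, Dsp, Dsg3 and others), and all 17 were at 0.3 TPM or more in every library. Their summed level was 7999 to 10371 TPM in P-F127 at day 3, 6506 to 10776 in CAP at day 3, 5710 to 7630 in P-F127 at day 6 and 7291 to 10591 in CAP at day 6. Of 22 hair follicle markers, 21 were found in the tables and 6 reached 0.3 TPM in all libraries, and the sum of the 21 was 33.7 to 48.1, 33.3 to 46.7, 45.0 to 125.6 and 14.8 to 24.9 TPM in the same order. The follicle keratins Krt25 and Krt71 were listed at or near 0 in at least 1 library of each group.

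The 4 keratins were among the most abundant transcripts of the wounds. At day 3 in P-F127 they made up 2.52%, 2.78% and 2.42% of all TPM in replicates 1 to 3, and in CAP 3.15%, 3.55% and 1.78%. At day 6 the shares were 0.950%, 1.53% and 1.02% in P-F127 and 2.31%, 1.04% and 0.627% in CAP. By rank among all genes, Krt6b held between rank 2 and rank 53 in the 12 libraries and Krt17 between rank 28 and rank 114. The levels ran in the order Krt6b, Krt6a, Krt16, Krt17 in 9 of the 12 libraries, and Krt17 was the lowest of the 4 in all 12. The exceptions were P-F127 replicate 2 at day 6, where Krt16 stood above Krt6a, and CAP replicates 2 and 3 at day 6, where Krt16 stood above both type II keratins. In the sham group at day 3 each step in this order was larger than the SD of either neighbour. In the other 3 groups only the step from Krt16 to Krt17 was. In CAP at day 6 the mean of Krt16 stood above that of Krt6a, and the distance from Krt6a to Krt17 was within the SD of Krt6a, with 4299 ± 3403 TPM for Krt6b, 3791 ± 1954 for Krt16, 3718 ± 2530 for Krt6a and 1462 ± 915 for Krt17 (SD, n = 3).

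**Figure D1:**
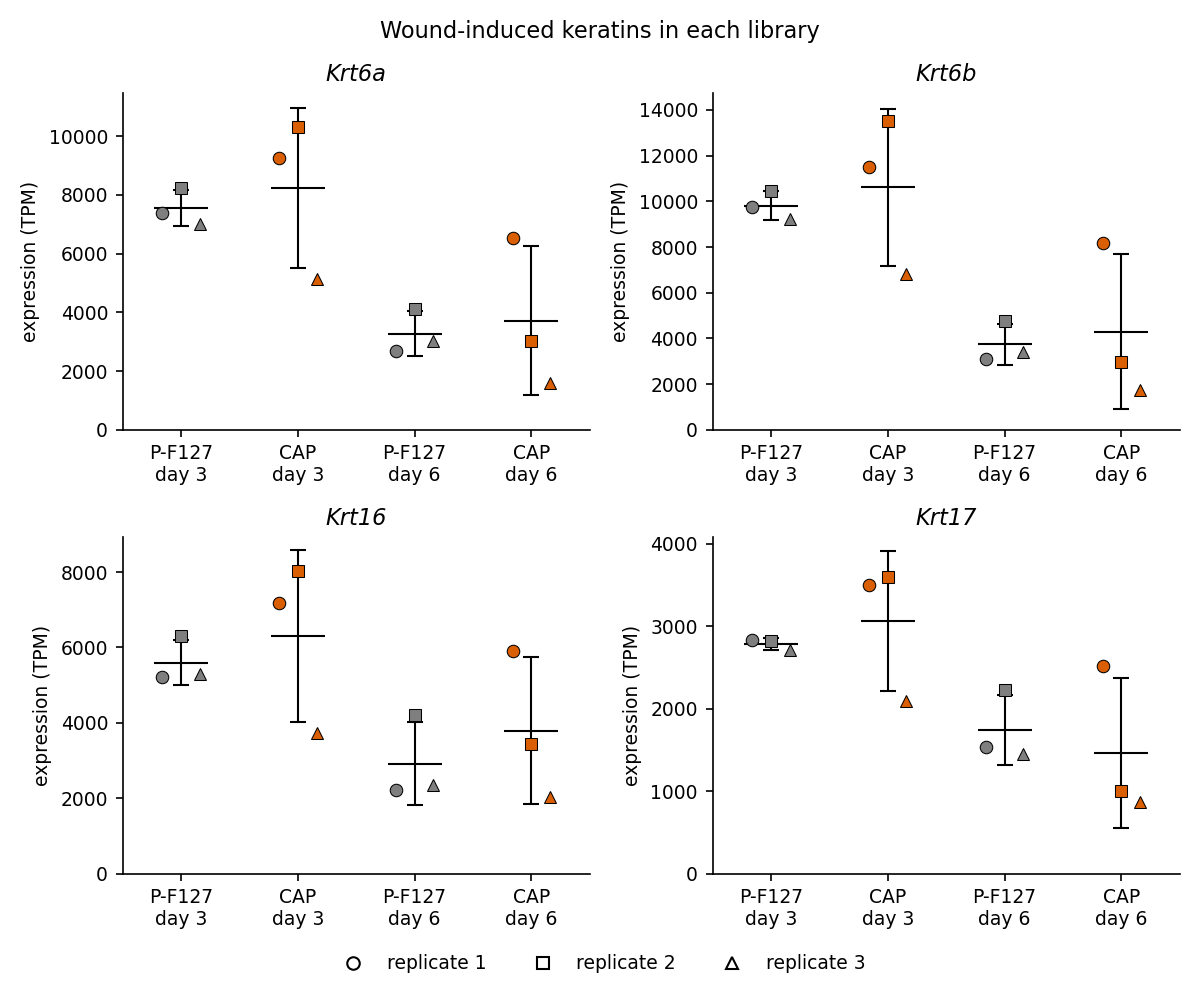
Expression of Krt6a, Krt6b, Krt16 and Krt17 in TPM in each of the 12 libraries, with P-F127 in grey and CAP in orange; the symbol gives the replicate, the bar the group mean and the whiskers the SD (n = 3). The 3 sham libraries at day 6 lie below the 3 at day 3 in each panel, and in CAP at day 6 replicate 1 lies above the other replicates in each panel.

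The first question was how the wound-induced keratins changed between day 3 and day 6 in the sham group. All 4 were lower at day 6 in every library than in any library at day 3, and Krt6a and Krt6b passed the threshold. Krt6b stood at 9775, 10460 and 9220 TPM at day 3 and at 3081, 4756 and 3393 TPM at day 6. The highest day 6 library lay far below the lowest day 3 library. Krt6a stood at 7380, 8226 and 7025 TPM at day 3 and at 2671, 4132 and 3010 TPM at day 6, again with a wide gap between the groups. The type I partners differed by less between the days. Krt16 went from 5213, 6294 and 5294 TPM to 2209, 4199 and 2347 TPM, with replicate 2 at day 6 nearest to the day 3 values. Krt17 had the tightest group of all at day 3, with 2829, 2820 and 2706 TPM, and stood at 1536, 2230 and 1451 TPM at day 6.

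Differences were tested with limma on log2(TPM + 0.1) over all genes that averaged 0.3 TPM or more in each of the groups compared. A gene was called where it differed by 2-fold or more with an unadjusted p under 0.05. Krt6b fell by 1.42 on the log2 scale (SE 0.21, adjusted p = 0.0242) and Krt6a fell by 1.23 (SE 0.20, adjusted p = 0.0327). Summed into 1 value, the paralogs fell by 1.33. Krt16 had a log2 difference of −0.999 (SE 0.26, adjusted p = 0.116), just short of 2-fold, and Krt17 one of −0.71 (SE 0.18, adjusted p = 0.108). Thus 2 of the 4 members were called lower, against 1.61% of the 18368 genes tested. With an adjusted p under 0.05 there were also 2, against 1.14% of genes lower by that rule. The groups did not overlap for 4 of 4 members, all lower, against 10.6% of genes. The median log2 difference of the members was −1.11, and that of all genes 0.00. The 2-sided exact permutation test gave p = 0.1 for each member, the smallest it can give with 3 libraries against 3, and 0.4 after adjustment over the 16 tests of members. The calls of Krt6a and Krt6b at the unadjusted threshold held with each library left out in turn. The count with an adjusted p under 0.05 did not. It was 0 without P-F127 replicate 2 or 3 at day 3 or replicate 1 or 3 at day 6, 4 without replicate 2 at day 6, 1 without the intensity trend, and 0 without the expression filter and in a joint fit of all 12 libraries.

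In the CAP-treated wounds the members were also lower on average at day 6, but the groups overlapped for each. Krt6b stood at 11499, 13539 and 6826 TPM at day 3 and at 8165, 2977 and 1756 TPM at day 6. Krt6a stood at 9262, 10302 and 5135 TPM and then at 6521, 3029 and 1603 TPM. In both, replicate 1 at day 6 lay above replicate 3 at day 3. Krt16 went from 7186, 8017 and 3719 TPM to 5899, 3431 and 2042 TPM, and Krt17 from 3506, 3602 and 2091 TPM to 2516, 1001 and 870 TPM, with the same pair of libraries crossing. The spread was wider than in the sham group, by an amount that differed between members. At day 6 the SD was 68.1% of the mean for Krt6a in CAP and 23.4% in P-F127. For Krt16 it was 51.5% in CAP and 38.1% in P-F127.

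By limma, Krt6b fell by 1.55 on the log2 scale (SE 0.58, adjusted p = 0.394), Krt6a fell by 1.32 (SE 0.54, adjusted p = 0.426) and Krt17 fell by 1.20 (SE 0.44, adjusted p = 0.386), while Krt16 had a difference of −0.79 (SE 0.47, adjusted p = 0.546). The unadjusted limma p lay between 0.0312 and 0.136. At the unadjusted threshold 3 of 4 members were called lower, against 1.52% of the 18202 genes tested. The groups did not overlap for 0 of 4 members, against 9.63% of genes lower in this way. The exact permutation p was 0.2 for each of the 4. The median log2 difference of the members was −1.26, and that of all genes −0.05. Single libraries decided the calls. The number called was 0 without CAP replicate 1 or 2 at day 3 and 0 without replicate 2 or 3 at day 6, though the members' differences stayed below 0 in each case. Without CAP replicate 1 at day 6 the log2 difference of Krt6b was −2.16 and that of Krt6a −1.84. Without the expression filter 1 member was called, and Krt6a was short of the threshold also with median-ratio scaling and without the intensity trend.

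The effect of CAP itself was asked at each day. At day 3 the members' levels did not separate the treatments, with the 3 sham libraries lying inside the range of the 3 CAP libraries for all 4. The log2 differences were 0.07 for Krt6a (95% interval −0.66 to 0.79), 0.06 for Krt6b (−0.67 to 0.79), 0.10 for Krt16 (−0.66 to 0.86) and 0.10 for Krt17 (−0.47 to 0.66). These intervals end short of a 2-fold difference in either direction. The limma p lay between 0.695 and 0.857, and 0 of 4 members were called, against 0.426% of 18330 genes higher and 1.16% lower. The sign of these small differences is not fixed: all 4 turned negative without CAP replicate 1 or without replicate 2, and those of Krt6b and Krt16 turned negative with quantile normalization.

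At day 6, 0 of 4 members were called either, against 1.46% of 18323 genes higher and 2.34% lower. Krt6a differed by −0.02 (95% interval −1.18 to 1.13), Krt6b by −0.07 (−1.34 to 1.19), Krt16 by 0.31 (−0.71 to 1.32) and Krt17 by −0.39 (−1.36 to 0.58) on the log2 scale. These intervals still hold 2-fold differences, in both directions for Krt6a and Krt6b, only a higher level for Krt16 and only a lower one for Krt17. The limma p lay between 0.369 and 0.964. CAP replicate 1 stood above all 3 sham libraries for all 4 members, and CAP replicate 3 stood below all 3. Leaving out 1 library moved the difference of Krt6a between −0.54 and 0.47. That of Krt17 was −0.87 without CAP replicate 1, with a limma p of 0.0109, and stayed negative and short of 2-fold with each library left out. Median-ratio scaling turned Krt6a to 0.09 and Krt6b to 0.04. The median of all genes was −0.12 in this comparison and −0.02 with that scaling, and the calls over all genes went from 268 higher and 429 lower to 388 higher and 303 lower.

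The CAP effects of the 2 days were also compared with each other in 1 fit of all 12 libraries. The difference of the effects was −0.09 for Krt6a, −0.13 for Krt6b, 0.21 for Krt16 and −0.49 for Krt17 (limma p between 0.36 and 0.888), and 0 of 4 members were called, against 2.18% of 20267 genes higher and 2.73% lower. Without CAP replicate 1 at day 6 it was −0.97 for Krt17, with a limma p of 0.0199. The same contrast asks whether the change over time differed between P-F127 and CAP. The fall that passed the threshold for different members in the 2 treatments was thus not shown to differ between them.

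**Figure D2:**
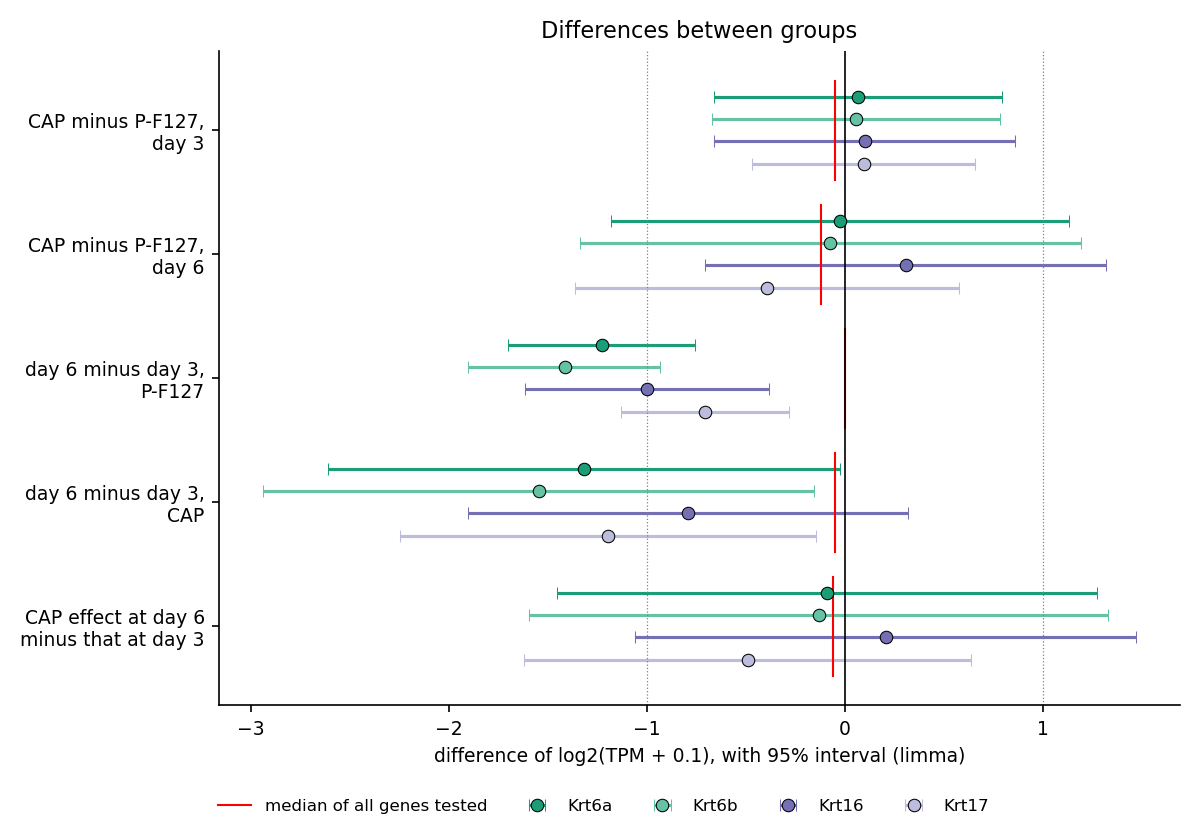
Differences of log2(TPM + 0.1) for the 4 keratins in the 5 comparisons, with 95% intervals from limma; the red line is the median of all genes tested and dotted lines mark 2-fold. The intervals of the change over time in P-F127 lie wholly below 0, and those of CAP against P-F127 span 0 on both days.

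The ratios between the members were less spread than their levels. Over the 12 libraries the SD of log2(TPM + 0.1) was 0.84 for Krt6a, 0.95 for Krt6b, 0.68 for Krt16 and 0.67 for Krt17, while the SD of the log2 ratio was 0.14 for Krt6a to Krt6b, which share sequence, and 0.27 to 0.39 for the other 5 pairs. Each ratio was compared in 4 comparisons with 2-sided exact permutation tests, 20 tests in all together with the comparisons to other keratinocyte genes, so that 0.1 was the smallest p possible and 0.222 the smallest adjusted p. The ratio of the type II members (Krt6a + Krt6b) to the type I members (Krt16 + Krt17) was 2.13, 2.05 and 2.03 in P-F127 at day 3 and 1.54, 1.38 and 1.69 at day 6. In CAP it was 1.94, 2.05 and 2.06 at day 3 and 1.75, 1.36 and 1.15 at day 6. All libraries at day 6 lay below all libraries at day 3 in both treatments (log2 difference −0.44 in P-F127 and −0.53 in CAP, p = 0.1 each by the exact permutation test). The levels of the members overlapped between the days in CAP, and this ratio did not.

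The ratio of Krt6b to Krt6a went from 1.32, 1.27 and 1.31 at day 3 to 1.15, 1.15 and 1.13 at day 6 in P-F127 (log2 difference −0.19, exact permutation p = 0.1). In CAP it was 1.24, 1.31 and 1.33 at day 3 and 1.25, 0.983 and 1.10 at day 6, which overlap (p = 0.2 by the exact permutation test). The shared sequence of the paralogs bears directly on this ratio, and its part was not tested. The ratio of Krt16 to Krt17 was the one of these ratios in which CAP and P-F127 separated at day 6. It was 2.34, 3.43 and 2.35 in CAP against 1.44, 1.88 and 1.62 in P-F127, higher in each CAP library (log2 difference 0.70, exact permutation p = 0.1, adjusted p = 0.222). At day 3 it was 2.05, 2.23 and 1.78 in CAP and 1.84, 2.23 and 1.96 in P-F127, with a log2 difference of 0.00. Leaving out 1 library at a time moved the day 6 difference between 0.52 and 0.80, and adding Gm11597 to Krt16 left it at 0.70. Over time in CAP this ratio was also higher in each day 6 library (log2 difference 0.41, exact permutation p = 0.1), while in P-F127 it overlapped (−0.29, exact permutation p = 0.2). Of the 31-base stretches, 19.74% of those of Krt16 and 11.83% of those of Krt17 also occurred in Krt14. The part of this in the ratio was not tested.

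**Figure D3:**
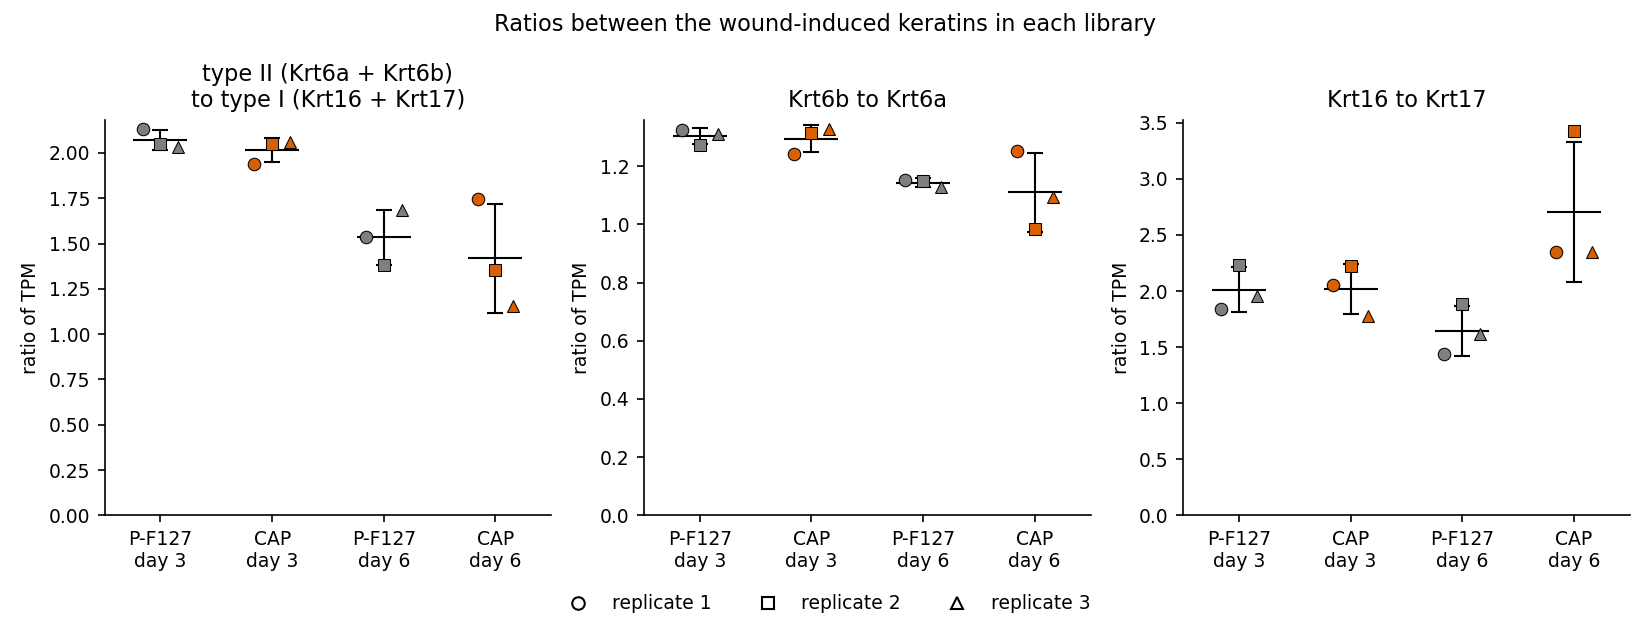
Ratios of TPM between the wound-induced keratins in each library, with P-F127 in grey and CAP in orange, the symbol giving the replicate, the bar the mean and the whiskers the SD (n = 3). The type II to type I ratio lies between 1.94 and 2.13 at day 3 and between 1.15 and 1.75 at day 6, and the Krt16 to Krt17 ratio of CAP at day 6 lies above the other groups.

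The members were then set against the resting epidermal keratins. The ratio of the 4 members to the basal pair Krt5 and Krt14 was 1.27, 1.12 and 1.14 in P-F127 at day 3 and 0.724, 1.10 and 0.871 at day 6, and 1.14, 1.33 and 1.30 in CAP at day 3 and 0.982, 0.541 and 0.493 at day 6. The day 6 libraries lay below the day 3 libraries in both treatments (log2 difference −0.41 in P-F127 and −0.97 in CAP, p = 0.1 each by the exact permutation test). In P-F127 the gap was narrow, from 1.10 to 1.12. Against the 17 keratinocyte genes the members were 1.67-fold lower at day 6 in P-F127 and 2.32-fold lower in CAP. The groups did not overlap (p = 0.1 each by the exact permutation test, adjusted p = 0.222). With Krt5 and Krt14 in place of that list the difference in P-F127 went from −0.74 to −0.44 on the log2 scale. Krt14 itself had a log2 difference of −0.99 over time in P-F127 (limma adjusted p = 0.052) and Krt5 one of −0.30 (adjusted p = 0.518), and Krt14 shares sequence with Krt16 and Krt17.

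The suprabasal keratins took another course. Krt1, the type II keratin of differentiating cells, stood at 4010, 6224 and 5217 TPM in P-F127 at day 6 and at 16381, 29718 and 12748 TPM in CAP at day 6. Its partner Krt10 stood at 7432, 7490 and 8321 TPM in P-F127 and at 19544, 40801 and 16989 TPM in CAP, each CAP library above each sham library. Of the 9 other epidermal keratins, 4 rose in CAP against P-F127 at day 6 at the unadjusted threshold. They were Krt15 (log2 difference 1.21), Krt1 (1.86), Krt10 (1.62) and Krt78 (1.02), with a limma adjusted p between 0.205 and 0.206, and the list's median was 0.76. The same 4 were called higher at day 6 than at day 3 in CAP, against 1.27% of genes, with log2 differences of 1.02, 1.90, 1.76 and 1.20. In P-F127 over time 0 of the 9 were called, against 2.13% of genes higher, with a list median of −0.26. The members thus made up 1.43 to 3.44 times the TPM of Krt1 and Krt10 at day 3 in both treatments, 0.754 to 1.12 times in P-F127 at day 6, and 0.643, 0.148 and 0.211 times in CAP at day 6. Because TPM is a share, the 7.05% of TPM that Krt1 and Krt10 took in CAP replicate 2 at day 6 lowers the share left for other genes there, and its part in the members' values was not tested.

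**Figure D4:**
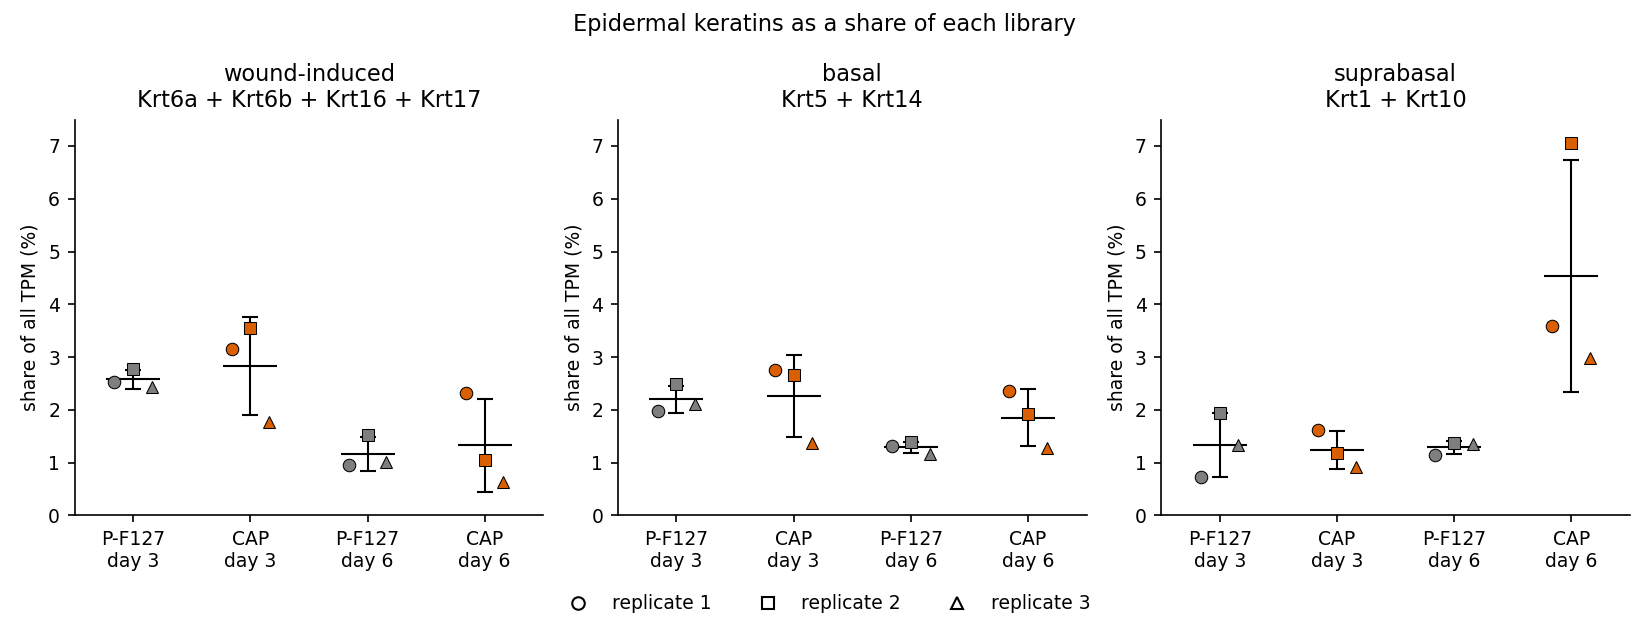
Share of all TPM, in percent, held by the 4 wound-induced keratins, by Krt5 and Krt14 and by Krt1 and Krt10 in each library, with P-F127 in grey and CAP in orange, the symbol giving the replicate, the bar the mean and the whiskers the SD (n = 3). The wound-induced share lies between 1.78% and 3.55% at day 3 and between 0.627% and 2.31% at day 6, and the Krt1 and Krt10 share is highest in CAP at day 6, at 2.97% to 7.05%.

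Other genes that activated keratinocytes express were read from a list of 19, all of them tested in each comparison. For this and the lists that follow, the shares of all genes called higher and lower serve as background. For CAP against P-F127 they were 0.426% and 1.16% at day 3 and 1.46% and 2.34% at day 6. Over time they were 2.13% and 1.61% in P-F127 and 1.27% and 1.52% in CAP. Over time in P-F127, 3 of the 19 were called lower and 0 higher. They were the gap junction genes Gjb2 (log2 difference −1.25, limma adjusted p = 0.0146) and Gjb6 (−1.01, adjusted p = 0.0327) and the cornified envelope gene Sprr1b (−1.04, adjusted p = 0.164), and the list's median was −0.29. With a limma adjusted p under 0.05, 3 of the 19 were lower there, against 1.14% of genes. These were Gjb2, Gjb6 and a further gene that fell by less than 2-fold. Over time in CAP, 6 were called lower and 1 higher, among them Sprr1a (−1.09), Lce3a (−1.44) and Gjb6 (−1.57), while the interleukin-36 alpha gene Il1f6 rose by 1.58 (adjusted p from 0.236 to 0.352), and the median was −1.03. In CAP against P-F127, 0 were called at day 3 and 3 were called lower at day 6, namely the protease inhibitor gene Slpi (−1.495), Lce3a (−1.88) and Sprr2e (−1.34), with an adjusted p between 0.206 and 0.243.

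Of 16 genes listed for the migrating wound edge, 3 rose over time in P-F127, against the direction of Krt6a and Krt6b. They were the matrix metalloproteinase genes Mmp10 (log2 difference 1.71), Mmp9 (1.29) and Mmp13 (1.68). Which cells made these transcripts cannot be told from bulk samples. In CAP against P-F127 at day 6, 5 were called lower, among them Mmp9 (−1.19), the podoplanin gene Pdpn (−1.15), Mmp13 (−1.38) and the integrin gene Itga5 (−1.03), with a list median of −0.63. At day 3, 0 of the 16 were called. Over time in CAP 1 of the 16 was called lower, the integrin gene Itgb6 (−1.19). With a limma adjusted p under 0.05, 2 of the 16 were higher over time in P-F127, and 0 differed in the other comparisons.

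Signals known to induce these keratins were read from lists of growth factors and of cytokines with their receptors. Of 14 growth factor and receptor genes, Fgf22 rose in CAP against P-F127 at day 6 (1.16) and over time in CAP (1.35), as did the epiregulin gene Ereg over time in CAP (1.62), and 0 were called in P-F127 over time or by CAP at day 3. Of 18 cytokine and receptor genes, 13 or 14 passed the expression filter. Over time in P-F127, Tnf (1.15), Osm (1.34) and Il1b (1.45) rose at the unadjusted threshold, while in CAP against P-F127 at day 6 Il6 (−1.67) and Osm (−1.38) fell. Of 21 transcription factors linked to keratin genes, Fos fell in CAP against P-F127 at day 6 (−1.05, limma adjusted p = 0.205) and Fosb rose over time in CAP (1.28). No gene of the growth factor, cytokine and transcription factor lists had a limma adjusted p under 0.05 over time or by CAP. The stress regulator Nfe2l2, a known activator of Krt6, Krt16 and Krt17 transcription, was not called in any comparison. A list of 12 genes for keratin-binding or junction proteins held, for example, plectin (Plec) and plakoglobin (Jup). Of these 12, 0 were called in any of the 5 comparisons, and the same held for the 17 keratinocyte genes and the 8 proliferation genes. Of the last, the cyclin gene Ccna2, named after its values were seen, was lower over time in P-F127 by less than 2-fold (log2 difference −0.62, limma adjusted p = 0.0462), and the list's median there was −0.43.

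Among 17780 genes that averaged 0.3 TPM or more in every group, those whose log2 level ran most like the members' mean over the 12 libraries were 2610528A11Rik (Pearson's r = 0.985), which encodes the GPR15 ligand made by epithelia, the glutathione transferase gene Gsta4 (0.983), Serpinb6c (0.968), the kallikrein gene Klk10 (0.968) and Gm11597 (0.967). They were followed by Gm47135, Cd24a, Igf2bp1, Defb1 and Dsg3, with r down to 0.955. These values describe 12 libraries that share the same 4 groups, and Gm11597 shares sequence with Krt16. With each group's mean subtracted, 2610528A11Rik still led with r = 0.992, followed by Rbp2, Cstdc5, Klk13, Glrx, Gsta4, Gm11597, Ykt6, Serpinb6c and Gm49428, down to 0.957, of which Gm49428 overlaps Krt6a. The library with the highest member levels in CAP at day 6, replicate 1, thus also held the most 2610528A11Rik there, at 202 TPM against 48.2 and 30.6 TPM. Krt14 had r = 0.935 over the 12 libraries, Krt5 0.234, Krt1 −0.283 and Krt10 −0.415.

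Markers of other cells moved with the same contrasts. All 5 erythroid genes rose over time in P-F127 and in CAP against P-F127 at day 3, and their sum was 514 to 753 TPM in P-F127 and 2356 to 2803 in CAP at day 3, and 2113 to 5622 in P-F127 and 716 to 3184 in CAP at day 6. Of 6 endothelial genes, 4 rose over time in P-F127 and 3 fell in CAP against P-F127 at day 6, and the sum was 90.5 to 119, 86.7 to 130, 233 to 320 and 75.3 to 197 TPM in the same order of groups. Skeletal muscle genes, 10 in all and none at 0, summed to 4368 to 6370, 2330 to 6204, 2824 to 4086 and 2065 to 3011 TPM, with 1 of 10 called lower over time in each treatment and 1 in CAP against P-F127 at day 6. Of 7 neutrophil genes, 5 were tested. Mmp8 rose in CAP against P-F127 at day 3 (1.99) and over time in P-F127 (1.58), Mmp8 (−2.20) and Retnlg (−2.24) fell over time in CAP, and 0 were called in CAP against P-F127 at day 6, with a median of −1.11. The list's median was 0.16 at day 3 and 0.18 over time in P-F127. Over time in CAP it was −0.88, with the highest gene at 0.96. The sum of the 7 neutrophil genes was 90.0 to 270.4, 177 to 258, 164 to 249 and 52.1 to 236 TPM in the same order. Of the hair follicle markers, 6 were tested in each comparison with CAP at day 6, where Tchh (−1.96) and Krt75 (−1.11) fell against P-F127 and Sox9 (−1.22) fell over time. The adipocyte gene Lep rose in CAP against P-F127 at day 6 (1.46) and the sebaceous gene Elovl3 over time in CAP (1.18), each the 1 gene called in its list. The 6 macrophage and 6 fibroblast genes had 0 called in these 4 comparisons. The part of other cells, of hair follicles and of the keratinocyte share in the members' levels was not tested.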

How the data were processed

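The authors trimmed paired-end reads with Trimmomatic 0.36 and estimated gene expression with StringTie, and they deposited TPM for each of 12 libraries. Aligner, annotation release and strand setting were not given in the sources used here. The files held 0 other columns of per-sample values. The members and the gene lists were chosen with earlier results of these data known. From the TPM, log2(TPM + 0.1) was fitted by limma 3.58.1 (R 4.3.3) along an intensity trend, over all genes that averaged 0.3 TPM or more in each group compared, or in at least 1 group for the comparison of effects, with Benjamini-Hochberg adjustment. Ratios were tested by exact 2-sided permutation in Python 3.11.15. The fit was tested on simulated data. Besides the members, the genes named were list genes past the threshold, or the 4 with the smallest p where more than 4 were, genes whose role is described, and the 10 genes most like the members. Alternatives were a pseudocount of 1 or 0.01 TPM, no filter, median-ratio or quantile scaling, no trend, a joint fit, a replicate block, Krt5 and Krt14 as the reference, and each library left out. The sums of Krt6a with Krt6b and of Krt16 with Gm11597, and the ratio to Krt1 and Krt10, were chosen after seeing the data. No promoter sequence was used.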

Additional observations from a re-analysis of the deposited data

Results flagged for a closer look

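The CAP effect differed between day 6 and day 3 for 23 genes of the 19 lists, by the interaction term of limma, with 2-fold or more between the effects and an unadjusted p under 0.05. Of all 20267 genes tested, 2.18% were called higher and 2.73% lower by the same rule. After adjustment over all genes no interaction passed, with an adjusted p of at least 0.428 for each. None of the 4 members was among the 23. The effect was higher at day 6 for Krt1 (log2 difference of the effects 1.93), Krt15 (1.38), Krt10 (1.65), Krt78 (1.01), the simple epithelial keratin Krt8 (1.98) and Fgf22 (1.02). It was lower at day 6 for the hair sheath gene Tchh (−1.68), Slpi (−1.52), Lce3a (−2.18), Mmp9 (−1.42), Mmp13 (−1.95), Mmp10 (−1.79), Plaur (−1.42), Pdpn (−1.01) and Il19 (−2.60). It was also lower at day 6 for all 5 erythroid genes, Hba-a1 (−3.22), Hba-a2 (−3.24), Hbb-bs (−3.20), Hbb-bt (−3.19) and Alas2 (−3.34), for the neutrophil genes Mmp8 (−3.78) and Retnlg (−2.42), and for the macrophage gene Lyz2 (−1.15). Genes entered this comparison with an average of 0.3 TPM or more in at least 1 group. Krt8 averaged under that level at day 6 in both P-F127 (0.2031 TPM) and CAP (0.1964 TPM). Its value thus reflects a lower level in CAP at day 3 (0.4244 against 1.4977 TPM), not a rise at day 6. Il19 averaged 0.1956 TPM in CAP at day 6, against 0.5236, 3.3945 and 0.7326 TPM in the P-F127 libraries. Single outlying libraries were not tested in these groups of 3.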

How the results depend on the processing

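The depth is unknown, and with 3 libraries a group 1 library can decide a call. With a pseudocount of 1 TPM the genes past the threshold went from 290 to 154 (CAP at day 3), 697 to 385 (CAP at day 6), 688 to 405 (time in P-F127), 507 to 299 (time in CAP) and 994 to 580 (difference of effects), and without the filter to 568 (CAP at day 3), 1156 (time in P-F127) and 842 (time in CAP). The members with an adjusted p under 0.05 over time in P-F127 went from 2 to 0 without the filter, 1 without the trend and 0 in the joint fit, and those called over time in CAP from 3 to 1 without the filter. The cause of these moves was not tested. Krt6b at day 3 turned to −0.0900 and Krt16 to −0.0239 with quantile normalization, and Krt6b to 0.00961 in the difference of effects. At day 6 median-ratio scaling turned Krt6a to 0.0862 and Krt6b to 0.0358. Over time in P-F127, Krt16 passed 2-fold after quantile normalization (−1.03), after median-ratio scaling (−1.01) and once Gm11597 was added (−1.003). The level relative to the keratinocyte genes over time in P-F127 was −0.44 with Krt5 and Krt14 in their place.

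Quantile normalization called 406 genes higher and 244 lower by CAP at day 6 (268 and 429 as deposited), 101 and 160 at day 3 (78 and 212), and 544 and 483 in the difference of effects (441 and 553), and median-ratio scaling 516 and 495 there. Over time in CAP median-ratio scaling called 274 and 241 (231 and 276).

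With 1 library left out, genes past the threshold ranged from 204 to 510 (CAP at day 3), 311 to 1483 (CAP at day 6), 382 to 886 (time in CAP) and 657 to 1777 (difference of effects). Members past the adjusted p over time in P-F127 ranged from 0 to 4, and members called over time in CAP from 0 to 4. The CAP difference at day 3 ranged from −0.13 to 0.38 for Krt6a, −0.15 to 0.35 for Krt6b, −0.11 to 0.44 for Krt16 and −0.0404 to 0.35 for Krt17. At day 6 it ranged from −0.54 to 0.47 for Krt6a, −0.69 to 0.42 for Krt6b, −0.0770 to 0.69 for Krt16 and −0.87 to −0.105 for Krt17. The difference of effects ranged from −0.61 to 0.40, −0.74 to 0.37, −0.18 to 0.59 and −0.97 to −0.20 in the same order. In a group reduced to 2 libraries the limma fit still pools the spread.

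The deviations of same-numbered libraries were weakly correlated at most (−0.11 to 0.22), so the numbers were not taken to pair libraries. In CAP against P-F127 at day 6 each replicate did correlate best with its own number (0.017, 0.0938 and 0.0731). With the replicate block the genes past the threshold were 298 and 725 for CAP at day 3 and day 6, 709 and 548 over time in P-F127 and CAP, and 1084 for the difference of effects. It changed no call of a member, and left 2 members past the adjusted p over time in P-F127.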
